A study of Mus musculus with 360 samples.

Results

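The genes followed here are the nuclear-encoded subunits of the mitochondrial respiratory chain and ATP synthase, in cells of C1498, a line derived from a mouse acute myeloid leukemia, after a short heat treatment. Members were chosen by symbol alone: all rows of the expression table beginning Ndufa, Ndufb, Ndufc, Ndufs or Ndufv (complex I), Sdha to Sdhd (complex II), Uqcr (complex III), Cox4 to Cox8 (complex IV) or Atp5 (complex V), without the Ndufaf assembly factors. This gave 84 of the 24781 rows, of which 38 belong to complex I, 4 to complex II, 8 to complex III, 18 to complex IV and 16 to complex V. Cox4i2, Cox7b2, Cox8b, Cox8c and Ndufa4l2 had no UMI (a counted RNA molecule) in any of the 360 cells. Cyc1, the cytochrome c1 gene of complex III, carries none of these prefixes and is described among the partners.

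Cells were heated to 45 °C for 10 min or kept at 37 °C as the control, then imaged and picked singly, before heating (-1 h) or 1, 5, 10 or 15 h after it ended. The 45 °C groups held 6 cells before heating, 13 after 1 h, 52 after 10 h and 21 after 15 h, and the group of 5 h was the largest, with 61.9% of the 360 cells. The 37 °C groups held 11, 11, 6, 6 and 11 cells in order of time. All are of the same line, no allele or drug is named, and cells labelled 45 °C at -1 h had not yet been heated, which makes 6 unheated groups with 51 cells. No label names a culture or day, so each group counted as 1 sample. No test was made, and every interval is a 95% interval for counting error alone. Levels are CPM, the UMIs of a gene scaled to a total of 1e+06 in its group, and groups are compared by the log2 ratio of 45 °C over 37 °C, with 0.5 UMI added to each sum.

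Complexes I to IV pass electrons from NADH and succinate to oxygen, and complexes I, III and IV pump protons across the inner mitochondrial membrane. Complex V, the ATP synthase, lets the protons flow back and makes ATP. Most subunits are encoded in the nucleus and imported into mitochondria, where they join the few encoded by mitochondrial DNA. Transcription of the nuclear genes is known to involve NRF1, ETS family factors such as GABP, and coactivators of the PGC-1 family.

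Promoters are shown for members on which several results turn: Uqcrh, Cox7b and Atp5g1, which stood lower after heating, and Cox5b, which stood higher at 5 h. The sequences are RefSeq's, on the build GRCm38.p6, read 5′ to 3′ on the strand of the gene, and end where GENCODE's gene begins. Capitals mark exact matches, on either strand, to a CCAAT box, the ETS core CCGGAAG or the short NRF1 site TGCGCA.
Uqcrh: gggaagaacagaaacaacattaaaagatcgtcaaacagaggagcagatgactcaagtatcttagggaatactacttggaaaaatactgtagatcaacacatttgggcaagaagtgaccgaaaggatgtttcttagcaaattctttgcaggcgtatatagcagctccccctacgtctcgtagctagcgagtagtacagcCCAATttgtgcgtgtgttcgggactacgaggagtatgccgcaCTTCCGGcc
Cox7b: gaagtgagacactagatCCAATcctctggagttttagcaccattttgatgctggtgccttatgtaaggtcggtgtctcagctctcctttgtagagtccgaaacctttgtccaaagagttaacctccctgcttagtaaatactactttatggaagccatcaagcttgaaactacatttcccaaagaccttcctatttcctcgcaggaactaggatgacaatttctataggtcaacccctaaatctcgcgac
Atp5g1: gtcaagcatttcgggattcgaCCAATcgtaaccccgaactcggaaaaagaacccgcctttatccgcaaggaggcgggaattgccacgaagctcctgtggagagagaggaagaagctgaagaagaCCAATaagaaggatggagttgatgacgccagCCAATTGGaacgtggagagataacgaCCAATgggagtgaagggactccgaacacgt
Cox5b: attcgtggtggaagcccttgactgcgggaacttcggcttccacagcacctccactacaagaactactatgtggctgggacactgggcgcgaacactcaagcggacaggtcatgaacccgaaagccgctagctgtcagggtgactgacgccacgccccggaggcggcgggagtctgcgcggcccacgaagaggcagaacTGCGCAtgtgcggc
The Uqcrh sequence, chr4:116075072-116075320 on the minus strand, holds a CCAAT box and, near its end, an ETS core. The Cox7b sequence, chrX:106015450-106015699 on the plus strand, has a single CCAAT box far from the gene. The Atp5g1 sequence, chr11:96075671-96075881 on the minus strand, holds 5 CCAAT boxes, of which a pair on opposite strands overlap. The Cox5b sequence, chr1:36691237-36691448 on the plus strand, holds the short NRF1 site.

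Over the 250 bases before the RefSeq start, 69 of the 84 members and 27025 genes in all had an entry (82 members were matched by symbol and 2 by synonym). The NRF1 core GCGCATGCG was in 8.70% of members and 1.49% of all genes, and TGCGCA, which does not contain it but can overlap it, in 20.3% of members and 6.66% of all genes. The ETS core was in 15.9% of members and 7.05% of all genes, the cyclic AMP response element TGACGTCA in 5.80% of members and 1.62% of all genes, and CCAAT in 43.5% of members and 34.5% of all genes. The inverted heat shock element GAANNTTC was in 5.80% of members and 6.78% of all genes. AAGATGGCG, a core of the factor YY1, was in none of the 69 and in 0.607% of all genes. All are matches of letters on either strand, and nothing follows from them about binding.

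The median cell of a group held at least 18741 UMIs (45 °C, 10 h) and at most 40544 (37 °C, -1 h), and group totals ran from 173274 UMIs (37 °C, 10 h) to 6809101 (45 °C, 5 h). Against the myeloid label, 8 of 10 myeloid markers (Lyz2, Elane, Spi1, Csf1r, Kit, S100a8, S100a9 and Cebpa) had no UMI, and the list summed to at most 2.64 CPM in heated groups and 0 in unheated ones. Of 10 T lineage markers, Cd4 alone had no UMI, and they summed to 317 to 470.0 CPM in heated and 363 to 474 CPM in unheated groups. At each time only 2 of the 10 had at least 20 UMIs in both groups together and at least 10 CPM in 1 group. Rn45s, the ribosomal RNA precursor, took 10.6% to 15.5% of UMIs in heated and 11.4% to 15.96% in unheated groups, and it enters every CPM through the total. A count of 0 allows up to 0.441 CPM (3 counts) in the deepest group and 17.3 CPM in the shallowest.

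Taken as a sum, RNA of the 84 genes was close to its unheated share of all UMIs until 10 h after heating and lower at 15 h. Before heating the list made up 25814 CPM among cells later heated and 25770.4 CPM among 37 °C cells. After 1 h it stood at 25682 CPM in heated and 25424 CPM in 37 °C cells (log2 ratio 0.01, -0.02 to 0.05). After 5 h the sums were 24685 CPM in heated and 23050.1 CPM in 37 °C cells (0.10, 0.06 to 0.14), and after 10 h 23828 CPM in heated and 25959 CPM in 37 °C cells (-0.12, -0.17 to -0.08). After 15 h came the lowest sum of the 10 groups, 21218 CPM in heated and 24994 CPM in 37 °C cells (-0.24, -0.27 to -0.20). The 6 unheated groups spanned 23050.1 to 25959 CPM, so by this scaling only the 15 h group of the 4 heated groups lay outside, below them. With Rn45s, the ribosomal RNA precursor, left out of the total, the unheated groups spanned 27426 to 29426 CPM. The heated group of 1 h (29606 CPM) then lay above them, and those of 10 h (26646 CPM) and 15 h (25118 CPM) below. The higher sum at 5 h was set against the lowest unheated group: against all 51 unheated cells the ratio was -0.03, and without cell 4 of the 37 °C group it was 0.04. From sums, fewer cells that express a gene and less RNA per cell cannot be told apart.

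The total behind a CPM also shifted. With median-of-ratios size factors, which centre the genes of middling level, ratios were 0.17 higher at 1 h and 0.14 higher at 5 h on the log2 scale, and within 0.02 of the CPM ratios otherwise. The summed list then stood at 0.18 after 1 h and 0.24 after 5 h. By CPM, the median log2 ratio of the 76 measured members was -0.01, 0.06, -0.14 and -0.18 in order of time, beside -0.14, -0.23, 0.00 and -0.02 for all measured genes. By this filter the members lay above the middle of all genes at the first 2 times and below it at the last 2. With at least 200 UMIs, member medians were 0.026, 0.061, -0.081 and -0.18, beside 0.033, -0.088, -0.023 and -0.11 for all genes. The members were then not above the middle at 1 h. Measured means at least 20 UMIs in both groups together and at least 10 CPM in 1 of them. Besides the 5 genes with no UMI, Cox6b2, Cox7a1 and Atp5s missed this.

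**Figure D1:**
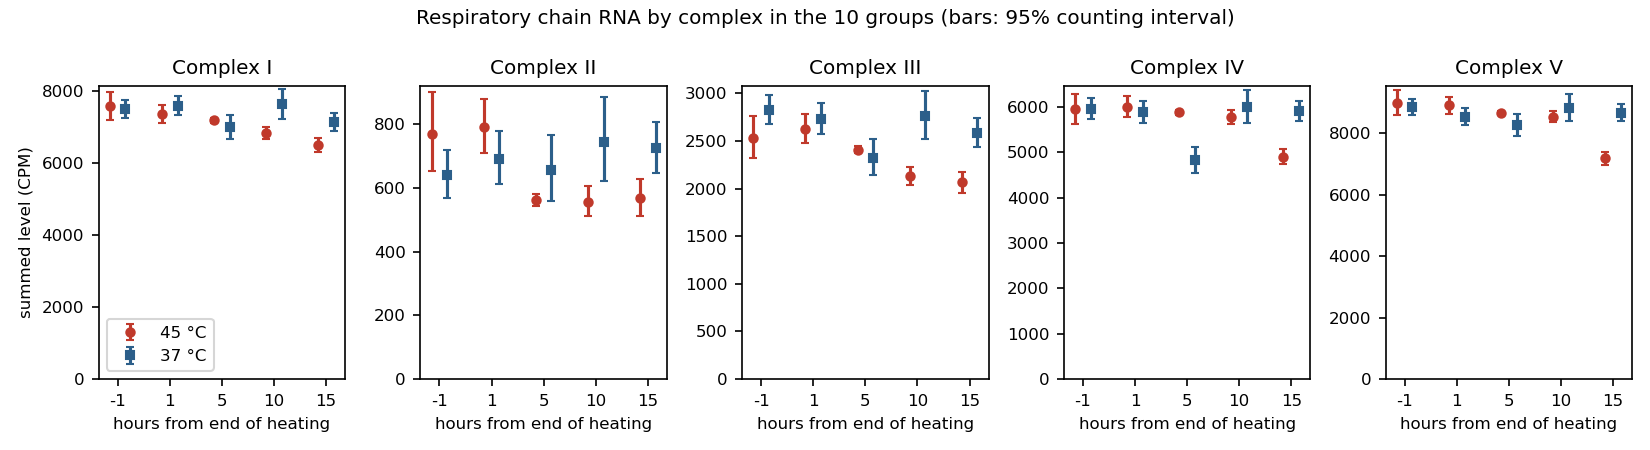
Summed level in CPM (y axis, from 0) of the members of each complex in the 10 groups, by hours from the end of heating (x axis), with 45 °C as red circles, 37 °C as blue squares and 95% counting intervals as bars. At 15 h the heated group stood lower in all 5 complexes, and the 37 °C group of 5 h was the lowest unheated group of complex IV, at 4824 CPM.

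Complex I, the NADH dehydrogenase, is the set with the most genes, and Ndufa4, kept here by its prefix, is also placed in complex IV. Its RNA summed to 7362 CPM in heated and 7592 CPM in 37 °C cells at 1 h and 7186 CPM in heated and 6990.1 CPM in 37 °C cells at 5 h. By 10 h the sums were 6839.8 CPM in heated and 7629.5 CPM in 37 °C cells (-0.16, -0.24 to -0.07), and by 15 h 6510.4 CPM in heated and 7126 CPM in 37 °C cells (-0.13, -0.20 to -0.06). At both later times the heated sum lay below the unheated groups (6990.1 to 7629.5 CPM). Among core subunits, Ndufs7, which carries the last iron-sulfur cluster before ubiquinone, had 131.01, 140.8, 111.2 and 135.7 CPM in heated cells over the 4 times, each below the unheated range of 148.7 to 174.7 CPM. Ndufs3, a core subunit of the peripheral arm, had the highest ratio of the complex at 5 h (1.11, 0.29 to 2.25), with 92.7 CPM in heated and 41.02 CPM in 37 °C cells. That 37 °C value is the lowest of the unheated range (41.02 to 124.8 CPM), inside which the heated level lay.

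Accessory subunits of complex I stood on both sides. Ndufa7 was the sole member above all 6 unheated groups at each of the 4 times (1.32% of members, beside 0.513% of 5066 genes). It had 318, 309, 354 and 322 CPM in heated cells, against 303, 264, 254 and 234 CPM in 37 °C cells. Its ratio was 0.47 at 10 h and 0.46 at 15 h (interval 0.12 to 0.82). Ndufb4 was below its unheated range (155.9 to 211.5 CPM) each time, at 147.1, 141.1, 131.7 and 123.8 CPM in heated cells. Ndufb3 stood at 143.9 CPM in heated and 231 CPM in 37 °C cells at 10 h (-0.69, -1.20 to -0.14). Ndufb8 stood at 197.7 CPM in heated and 318 CPM in 37 °C cells at 1 h (-0.69, -1.10 to -0.28), where the 37 °C value is the highest unheated one. Against all unheated cells the ratio was -0.38 for Ndufb3 and -0.37 for Ndufb8, both short of 1.5-fold, and with size factors Ndufb8 was at -0.52. Ndufa10 had the lowest ratio of the complex at 5 h (-0.59, -1.13 to 0.06). The members with the most UMIs were Ndufa13, at 278 CPM in heated and 357 CPM in 37 °C cells at 15 h, and Ndufa2, at 295 CPM in heated and 276 CPM in 37 °C cells.

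Complex II, succinate dehydrogenase, is encoded by the nucleus alone and also serves the tricarboxylic acid cycle. Its 4 genes summed to 791 CPM in heated and 689.9 CPM in 37 °C cells at 1 h and 562 CPM in heated and 656 CPM in 37 °C cells at 5 h (-0.23, -0.45 to 0.01). At 10 h they made up 556 CPM in heated and 744 CPM in 37 °C cells (-0.42, -0.70 to -0.13), and at 15 h 568.3 CPM in heated and 723 CPM in 37 °C cells (-0.35, -0.57 to -0.13). The last 3 heated sums lay below the unheated groups, which spanned 641 to 768 CPM. Sdhb, the iron-sulfur subunit, stood at 153.6 CPM in heated and 358 CPM in 37 °C cells at 10 h (-1.23, -1.66 to -0.77) and at 167.05 CPM in heated and 245 CPM in 37 °C cells at 15 h. The 37 °C value of 10 h is the highest unheated one, and against all unheated cells the ratio was -0.60. Sdhd, a membrane anchor, stood at 120.7 CPM in heated and 196.9 CPM in 37 °C cells at 5 h (-0.72, -1.13 to -0.25). Its ratio was -0.41 without cell 2 of the 37 °C group and -0.58 with size factors, both short of 1.5-fold. Sdhc, another anchor, had the highest ratio of the complex at 5 h, 0.05, and Sdha, the flavoprotein, stood at 149.3 CPM in heated and 164.1 CPM in 37 °C cells.

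Complex III passes electrons from ubiquinol to cytochrome c. Its 8 genes summed to 2625 CPM in heated and 2729 CPM in 37 °C cells at 1 h and 2407 CPM in heated and 2326 CPM in 37 °C cells at 5 h. At 10 h the sums were 2129 CPM in heated and 2764 CPM in 37 °C cells (-0.38, -0.52 to -0.23), and at 15 h 2064 CPM in heated and 2584 CPM in 37 °C cells (-0.32, -0.44 to -0.21), where the unheated groups spanned 2326 to 2826 CPM.

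Uqcrh encodes the hinge protein that binds cytochrome c1 (chr4:116066965-116075071, minus strand). Before heating it stood at 649 CPM among cells of the 45 °C arm and 626 CPM among those of the 37 °C arm. In heated cells it then had 618, 343, 350.1 and 413 CPM in order of time, against 579, 597, 623 and 679.6 CPM in 37 °C cells. The 6 unheated groups and the heated group of 1 h all lay within 579 to 679.6 CPM, and the 3 later heated groups lay below without overlap. The log2 ratio was -0.81 (-1.04 to -0.55) at 5 h. It was -0.84 at 10 h and -0.72 at 15 h. Single cells of 5 h ranged from 0 over a median of 322 to 1112 CPM when heated, and from 419.8 over a median of 577 to 861 CPM at 37 °C. At 15 h they ranged from 0 over a median of 410.1 to 677 CPM when heated and from 432 over a median of 724 to 1159.9 CPM at 37 °C, so that cells of both groups overlapped while their medians stood apart.

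Other members of complex III took different courses. Uqcrb, a small subunit, had 152.8, 135.04, 123.997 and 158.1 CPM in heated cells over the 4 times, each below the unheated range of 182.5 to 225 CPM. Its ratio at 10 h was -0.75 (-1.29 to -0.16), and -0.56 without cell 6 of the 37 °C group, and it overlaps Gm10767 in the annotation. Uqcrq, another small subunit, had the highest ratio of the complex at 5 h (0.46, 0.19 to 0.75), with 627 CPM in heated and 455 CPM in 37 °C cells, inside the unheated range of 394 to 635 CPM. Uqcrc1 and Uqcrfs1, a core protein and the Rieske iron-sulfur protein, already differed before heating. Uqcrc1 had 159.7 CPM in cells of the 45 °C arm and 246 CPM in cells of the 37 °C arm. Uqcrfs1 stood at 139.7 CPM in the 45 °C arm against 235 CPM at 37 °C. The ratios were -0.61 and -0.72, and each came under 1.5-fold without 1 cell (-0.36 without cell 2 of the 45 °C arm, -0.57 without cell 5 of the 37 °C arm).

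Complex IV, cytochrome c oxidase, is where electrons reach oxygen. Its 18 genes summed to 6003 CPM in heated and 5881 CPM in 37 °C cells at 1 h and 5883 CPM in heated and 4824 CPM in 37 °C cells at 5 h (0.29, 0.20 to 0.37). At 10 h the sums were 5771 CPM in heated and 5996 CPM in 37 °C cells, and at 15 h 4901 CPM in heated and 5909 CPM in 37 °C cells (-0.27, -0.34 to -0.20). The 5 h ratio rests on a low 37 °C group, since the other 5 unheated groups lay between 5881 and 5996 CPM. Because of that low group the heated sum of 15 h lies inside the unheated range, though below the other 5 groups.

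Small subunits of complex IV parted from each other after heating. Cox7b (chrX:106015700-106022450, plus strand) had 423, 278, 199.01 and 229.7 CPM in heated cells in order of time, against 432, 386, 467 and 456 CPM in 37 °C cells. The unheated groups spanned 386 to 467 CPM, and the heated groups of 5, 10 and 15 h were below all of them. The ratio was -1.24 (-1.61 to -0.84) at 10 h and -0.99 (-1.30 to -0.68) at 15 h. Cox6b1, the subunit facing the intermembrane space, had 335, 289 and 318 CPM in heated cells of the last 3 times, against 367, 479 and 489.8 CPM at 37 °C. Its ratio was -0.74 (-1.09 to -0.36) at 10 h and -0.62 (-0.90 to -0.34) at 15 h. Both came just under 1.5-fold when 1 cell of the 37 °C group was left out (-0.55 without cell 3 of 10 h, -0.55 without cell 11 of 15 h). Cox7a2, the widely expressed form of subunit 7a, had 444, 398 and 358 CPM in heated cells of the same times, against 468, 612 and 573 CPM at 37 °C. Its ratio was -0.63 at 10 h and -0.68 at 15 h, and against all unheated cells -0.44 and -0.59. By CPM, Cox7b, Cox6b1 and Cox7a2 were each below the 6 unheated groups at 5, 10 and 15 h and not at 1 h. At 5 h the ratio was -0.48 for Cox7b, -0.15 for Cox6b1 and -0.08 for Cox7a2. With size factors these were -0.34, -0.004 and 0.06, and Cox6b1 was at 0.04 by CPM without cell 5 of the 37 °C group. For Cox6b1 and Cox7a2 the lower level at 5 h thus turned on the scaling.

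Cox5a and Cox5b, which sit next to the catalytic core, were not alike. Cox5b (chr1:36691449-36693681, plus strand) had 843, 915, 976 and 780.1 CPM in heated cells, against 869, 578, 883 and 879.6 CPM in 37 °C cells, and was above the unheated range (578 to 883 CPM) at 5 and 10 h. Its ratio at 5 h (0.66, 0.42 to 0.91) turned on the low 37 °C group: it was 0.15 against all unheated cells and 0.55 without cell 3 of that group. Cox5a stood at 247 CPM in heated and 384 CPM in 37 °C cells at 15 h (-0.63, -0.95 to -0.32). Without cell 7 of the 37 °C group its ratio was -0.55, and against all unheated cells -0.42. Cox8a, a small membrane subunit, had 873, 951, 875 and 657 CPM in heated cells, against 752, 714, 765 and 687 CPM at 37 °C, and was above its unheated range (687 to 853 CPM) until 10 h and below it at 15 h. Cox7a2l, known for binding complexes III and IV together, stood at 201.05 CPM in heated and 103.9 CPM in 37 °C cells at 10 h (0.92, 0.25 to 1.74), with a ratio of 0.46 against all unheated cells.

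**Figure D2:**
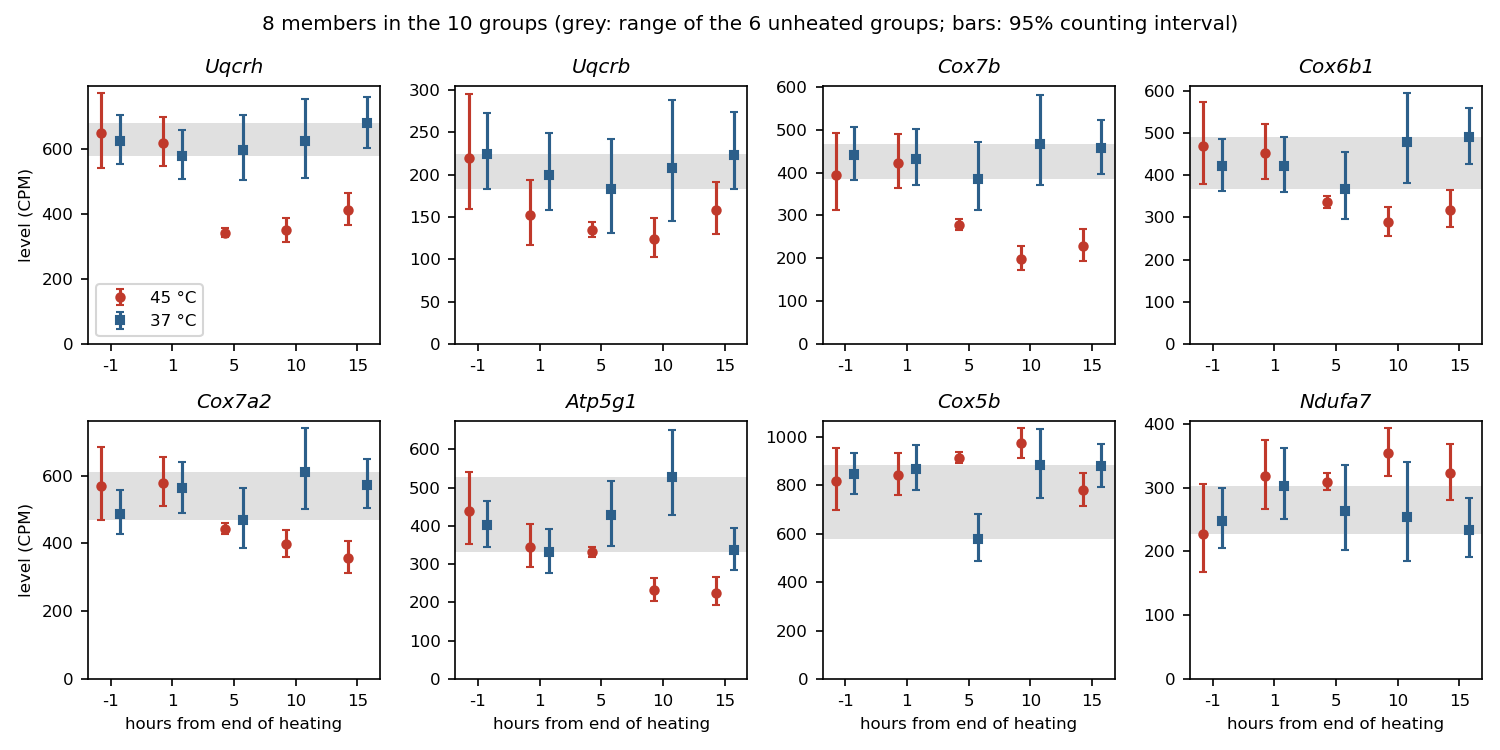
Level in CPM (y axis, from 0) of 8 members in the 10 groups, by hours from the end of heating (x axis). Red circles are 45 °C, blue squares 37 °C and bars 95% counting intervals, and the grey band spans the 6 unheated groups: Uqcrh, Cox7b, Cox6b1 and Cox7a2 lie under it at 5, 10 and 15 h, Uqcrb at all 4 times and Atp5g1 at 10 and 15 h, while Cox5b lies over it at 5 and 10 h and Ndufa7 at all 4.

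Complex V stayed near its unheated level until 10 h. Its 16 genes summed to 8901 CPM in heated and 8532 CPM in 37 °C cells at 1 h, 8647 CPM in heated and 8254 CPM in 37 °C cells at 5 h and 8532 CPM in heated and 8824 CPM in 37 °C cells at 10 h. At 15 h they summed to 7174 CPM in heated and 8652 CPM in 37 °C cells (-0.27, -0.33 to -0.21), with the heated group below the unheated ones (8254 to 8982 CPM). In the catalytic head, Atp5b, the beta subunit, had 1578, 1625, 1763 and 1324 CPM in heated cells, against 1451, 1259, 1515 and 1503 CPM in 37 °C cells. It was above its unheated range (1259 to 1538 CPM) until 10 h and inside it at 15 h. Atp5a1, the alpha subunit, stood at 635 CPM in heated and 765 CPM in 37 °C cells at 15 h (-0.27, -0.47 to -0.06), below its unheated range. Atp5d, of the central stalk, stood at 354 CPM in heated and 598 CPM in 37 °C cells at that time (-0.75, -1.01 to -0.49), where its unheated groups spanned 471 to 598 CPM. Against all unheated cells its ratio was -0.55. Atp5j, coupling factor 6, had the highest ratio of the complex at 5 h (0.38, 0.05 to 0.76).

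The 3 genes of the ring-forming c subunit, which encode the same mature protein, differed from each other. Atp5g1 (chr11:96068852-96075670, minus strand) had 345, 331, 233 and 226 CPM in heated cells in order of time, against 331, 429, 528 and 338 CPM in 37 °C cells. It was below its unheated range (331 to 528 CPM) at 10 and 15 h. The ratio at 10 h was -1.19 (-1.55 to -0.82), or -0.75 against all unheated cells. It was the lowest of the complex at 5 h, at -0.37, and -0.57 at 15 h. Atp5g3 had 1356, 1058, 994 and 902 CPM in heated cells, against 1157, 1183, 1301 and 1326 CPM at 37 °C, above its unheated range (1157 to 1326 CPM) at 1 h and below it at the 3 later times. Atp5g2 had 575, 545, 552 and 419 CPM in heated cells, against 603, 451, 352 and 357 CPM at 37 °C, all inside its wide unheated range of 352 to 661 CPM. Values that are not whole hold 4.43% of UMIs in Atp5g1, 4.67% in Atp5g2 and 11.3% in Atp5g3, and how shared reads were divided is not stated.

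Among pairs with tissue-specific forms, 1 form carried most UMIs. Cox4i1 had UMIs in every group and Cox4i2, a form known from lung, none. The same held for Cox8a against Cox8b and Cox8c, and for Ndufa4 against Ndufa4l2. Cox7a1, the heart and muscle form, had 22 UMIs in all, and Cox6b2, the testis form, 8.

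Cox6a2, the subunit 6a form known from heart and skeletal muscle, had UMIs in 40.6% of the cells. Before heating it stood at 19.96 CPM among cells later heated and 127.8 CPM among 37 °C cells. In heated cells it had 32.2, 76.7, 93.4 and 46.2 CPM in order of time, against 113.7, 18.5, 5.77 and 11.2 CPM in 37 °C cells. The unheated groups spanned 5.77 to 127.8 CPM, and every heated group lay inside. The ratio was -2.52 before heating and -1.79 at 1 h, then 2.06 at 5 h, 3.45 at 10 h and 1.93 at 15 h. The last 3 ratios rest on 4.5, 1 and 5 UMIs in the 37 °C groups, and the interval at 10 h is 1.51 to 9.34. All UMIs of the 37 °C groups of 5 and 10 h came from 1 cell each (cell 3 and cell 6), so that without it the group stood at 0 and no ratio is given. At 10 h, heated cell 25 held 37.7% of the UMIs, and the ratio was 2.80 without it. Against all unheated cells the ratio was -0.90, 0.31, 0.61 and -0.40 in order of time, so that its direction at 15 h turned over. The gene (chr7:128205435-128206387, minus strand) overlaps Itgad. Cox6a1, the widely expressed form, had 562, 585, 623 and 538 CPM in heated cells, against 525.7, 404, 615 and 602 CPM at 37 °C.

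**Figure D3:**
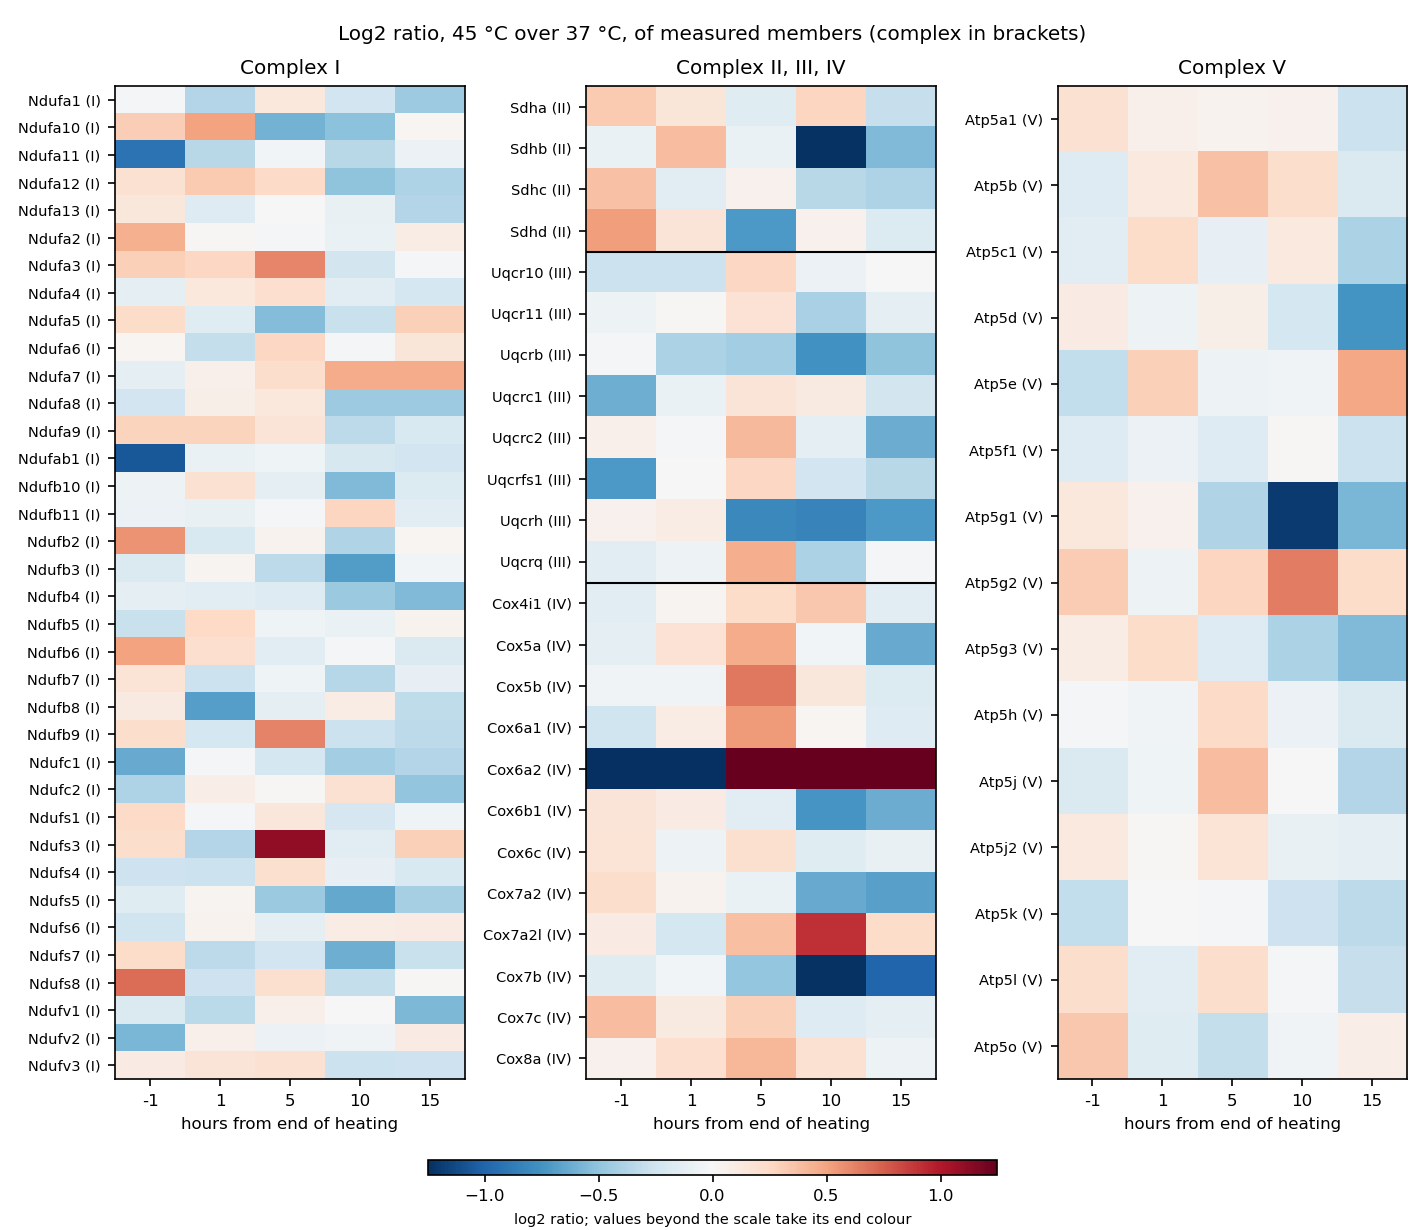
Log2 ratio of 45 °C over 37 °C (colour, red higher in 45 °C cells, blue lower) for the measured members but 1 (rows, grouped by complex) in the 5 comparisons (columns, hours from the end of heating, -1 being before it). Uqcrh is blue at 5, 10 and 15 h and Cox7b deepest at 10 and 15 h, while Cox6a2 is blue at -1 and 1 h and red later.

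Members were rarely 1.5-fold apart. Before heating 1 of the 76 stood at least 1.5-fold higher in the 45 °C arm (Ndufs8) and 6 lower (Cox6a2, Ndufa11, Ndufab1, Ndufc1, Uqcrc1, Uqcrfs1), where 11.8% of all measured genes were higher and 12.8% lower. Ndufa11, an accessory subunit of complex I, stood at 89.8 CPM in cells of the 45 °C arm against 174.03 CPM at 37 °C (ratio -0.92), and Ndufc1, another, at 134.7 CPM in the 45 °C arm against 211.5 CPM at 37 °C (ratio -0.63). The ratio of Ndufc1 was -0.36 without cell 2 of the 45 °C arm. After 1 h none was higher and 2 (Cox6a2, Ndufb8) were lower, beside 5.71% and 19.6% of all genes. After 5 h 5 were higher (Cox5b, Cox6a2, Ndufa3, Ndufb9, Ndufs3) and 3 lower (Ndufa10, Sdhd, Uqcrh), beside 12.5% and 30.5%. With size factors these were 8 and 1, beside 15.9% and 24.3%. After 10 h 4 were higher (among them Atp5g2, Cox6a2 and Cox7a2l) and 10 lower (Atp5g1, Cox6b1, Cox7a2, Cox7b, Ndufb3, Ndufs5, Ndufs7, Sdhb, Uqcrb, Uqcrh), beside 21.9% and 19.2%. After 15 h 1 was higher (Cox6a2) and 7 lower (Atp5d, Cox5a, Cox6b1, Cox7a2, Cox7b, Uqcrc2, Uqcrh), beside 12.3% and 12% of all genes. In each comparison and direction the members' share was under that of all genes by CPM. Over genes with at least 200 UMIs, 10.5% of members and 28.5% of all genes were past the fold in either direction at 5 h, 15.7% and 17.3% at 10 h, and 13.5% and 8.62% at 15 h.

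A second count asked how many members left the range of the 6 unheated groups. After 1 h 8 of the 76 were above it and 10 below, where 9.20% of all measured genes were above and 16.7% below. After 5 h 5 were above and 11 below, beside 7.36% and 18.5% of all genes. After 10 h 8 were above and 20 below, beside 21.6% and 15.3%. After 15 h 1 was above and 29 below, beside 15.8% and 13.3%. The share of members below the range was thus 26.3% at 10 h and 38.2% at 15 h. The 29 were 12 genes of complex I, 2 of complex II, 3 of complex III, 6 of complex IV and 6 of complex V. At these 2 times well counted genes as a whole were also below their range more often. With at least 200 UMIs, 21.6% of members and 22.2% of all genes were below at 10 h, and 38.5% and 31.4% at 15 h. Among these genes the members' share was near that of all genes at 10 h and somewhat above it at 15 h. Counts at the first 2 times turned on the scaling: with size factors 27 members were above and 3 below at 1 h, beside 17.1% and 10.8% of all genes, and 28 and 5 at 5 h, beside 15.0% and 11.4%. When 1 heated cell was left out, between 26 and 37 members were below at 15 h.

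**Figure D4:**
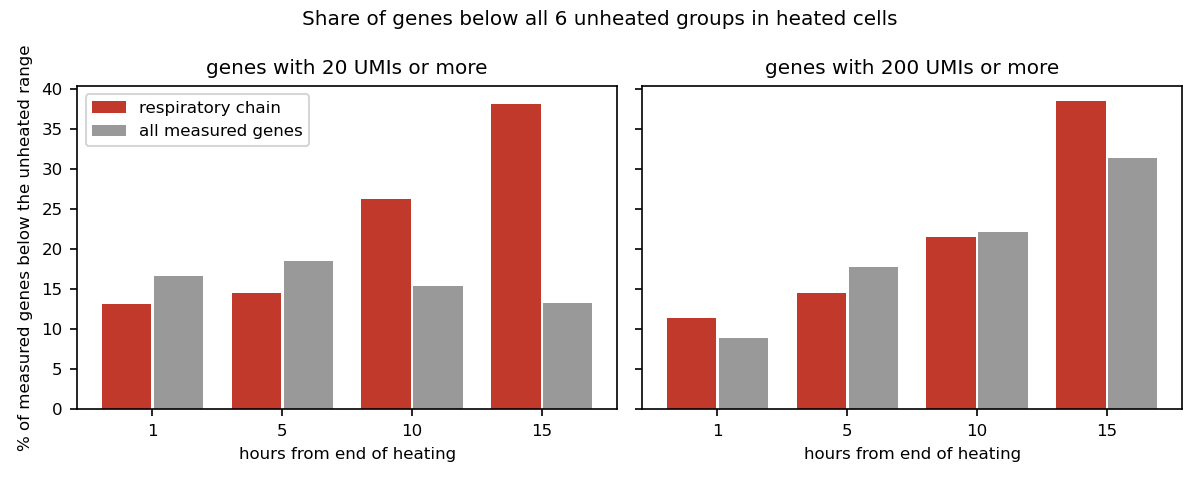
Percent of measured genes whose level in heated cells lay below all 6 unheated groups (y axis) by hours from the end of heating (x axis), for respiratory chain members and for all measured genes. With at least 20 UMIs the shares at 15 h are 38.2% and 13.3%, and with at least 200 UMIs 38.5% and 31.4%.

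By CPM, Ndufb4, Ndufs7 and Uqcrb were below the unheated range at all 4 times, and 8 members (Atp5g3, Cox6b1, Cox7a2, Cox7b, Ndufa13, Ndufb7, Ndufs5, Uqcrh) at 3. That is 3.95% of members at 4 times and 10.5% at 3, beside 1.93% and 5.70% of the 5066 genes measured at all 4 times. The 4 comparisons share the same 6 unheated groups. Ndufs5 holds 53.7% of its UMIs in values that are not whole, and Cox7c 69.6%.

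Some heated cells had much lower sums than any unheated cell. In the unheated groups the summed level per cell lay between 19994 and 33723 CPM. Heated cells ranged from 2045 over a median of 24806 to 33145 CPM at 5 h, from 1281 over a median of 23886 to 31092 CPM at 10 h and from 501 over a median of 21713 to 27794 CPM at 15 h. Under 15000 CPM there were 4, 7 and 5 heated cells at these times, and no cell of another group. Rn45s took over 50% of UMIs in 2 of those 4, in all 7 and in 2 of the 5. Without cells over 50% Rn45s the log2 ratio of the list was -0.09 at 10 h and -0.21 at 15 h. Leukocyte markers (Ptprc, Coro1a, Laptm5, Cd52), all 4 of them detected, were also lower as a sum. They summed to 1282 CPM in heated and 1925 CPM in 37 °C cells at 10 h, and to 1453 and 1985 CPM at 15 h. Of the 3 measured, 2 were lower and 1 higher in heated cells at both times. T lineage markers were at 317 CPM in heated and 469.5 CPM in 37 °C cells at 15 h. Their part in the result was not tested.

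**Figure D5:**
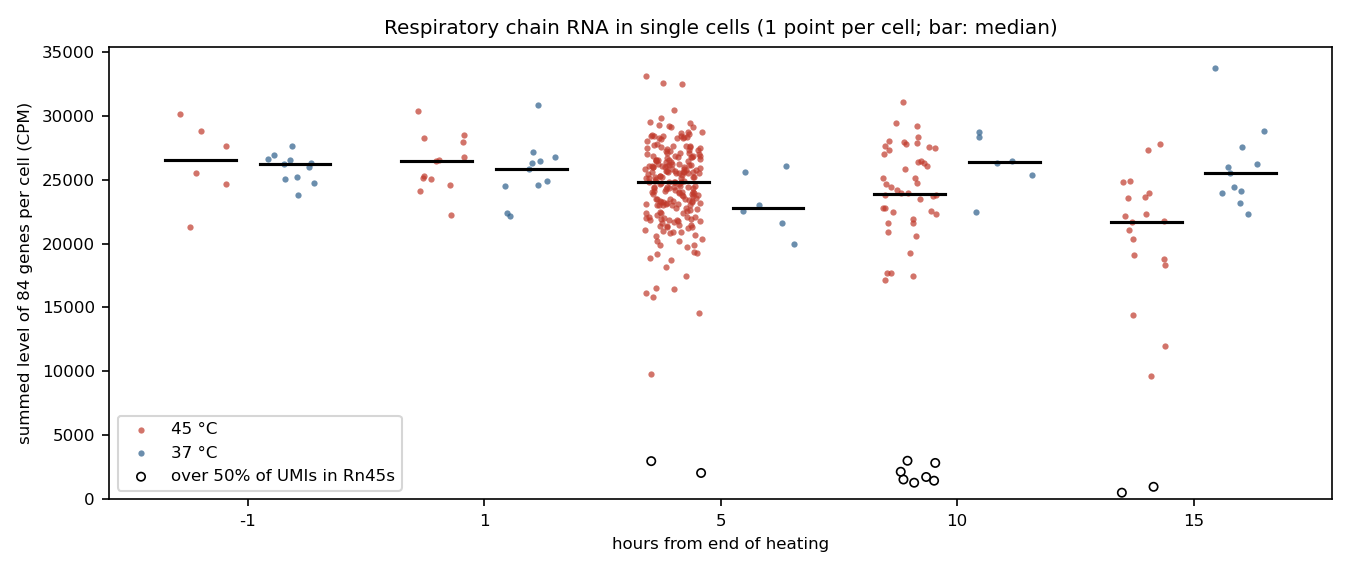
Summed level of the 84 genes in CPM (y axis, from 0) in each of the 360 cells, by hours from the end of heating (x axis), with 45 °C cells in red left of 37 °C cells in blue. Bars are group medians and open circles cells with over 50% of UMIs in Rn45s, and heated cells alone reach under 15000 CPM, at 5, 10 and 15 h.

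To compare spread at equal depth, cells were thinned to 5000 UMIs without Rn45s, which left out 6, 9 and 2 heated cells of the last 3 times. The Fano factor of the summed list (variance over mean, 1 for counting noise) was 2.16 in heated and 0.681 in 37 °C cells at 5 h. At 10 h it was 2.62 and 1.97, and at 15 h 5.14 and 1.88. With Rn45s kept among the thinned UMIs it was 3.90 in heated and 3.18 in 37 °C cells at 5 h, 7.82 and 3.86 at 10 h, and 15.6 and 3.38 at 15 h, so the gap between the groups at 5 h depends on whether Rn45s is kept. Cells of the 45 °C arm that had not been heated gave 2.17 without Rn45s, so the value at 5 h is not above all unheated groups. Single members of the heated cells of 5 h were near counting noise, with a median of 1.08 over 73 members and 1.12 over 1742 genes of like level. Cox6a2, too low in UMIs to enter this median, had a Fano factor of 2.38. Over the same cells, Pearson's r between the summed levels of 2 complexes was between 0.03 (III and V) and 0.34 (I and V). These cells share a group and a fixed total, and r is a description.

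Genes that work with the chain were read from lists. Electron carriers and partners outside the rule summed to 1990.1 CPM in heated and 2528 CPM in 37 °C cells at 10 h and 1719.7 CPM in heated and 2357 CPM in 37 °C cells at 15 h (-0.45, -0.58 to -0.33), with unheated groups at 2154 to 2528 CPM. Of the 11 measured at 10 h, 6 were higher and 5 lower in heated cells, with a median log2 ratio of 0.01. At 15 h 2 of the 11 measured were at least 1.5-fold lower and none higher, where 12% of all measured genes were lower and 12.3% higher. Cyc1, cytochrome c1, stood at 149.9 CPM in heated and 265 CPM in 37 °C cells at 15 h (-0.83, -1.23 to -0.43). Cycs, cytochrome c, stood at 352 CPM in heated and 658 CPM in 37 °C cells at 10 h (-0.91, -1.21 to -0.58). That 37 °C value is the highest of its unheated range (457 to 658 CPM). Aifm1, a flavoprotein needed for complex I, stood at 31.6 CPM in heated and 61.5 CPM in 37 °C cells at 5 h and at 30.1 CPM in heated and 115.4 CPM in 37 °C cells at 10 h. Its 37 °C value of 10 h is the highest unheated one (range 51.7 to 115.4 CPM). Ucp2, an inner membrane carrier, stood at 186.001 CPM in heated and 110.8 CPM in 37 °C cells at 5 h, but had differed before heating, at 64.9 CPM in cells of the 45 °C arm and 156.4 CPM in those of the 37 °C arm.

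Assembly factors build the complexes without staying in them. Of 47 measured at 5 h, 3 were at least 1.5-fold higher and 17 lower, and of 36 at 10 h, 3 and 14. Of all measured genes 12.5% were higher and 30.5% lower at 5 h, and 21.9% and 19.2% at 10 h. The sum stood at 1976 CPM in heated and 2459 CPM in 37 °C cells at 10 h (-0.32, -0.47 to -0.16) and at 1985 CPM in heated and 2051 CPM in 37 °C cells at 15 h. Dmac1, of complex I assembly, stood at 40.1 CPM in heated and 135.4 CPM in 37 °C cells at 5 h (-1.77, -2.28 to -1.19). That 37 °C value is the highest of its unheated range (80.8 to 135.4 CPM). Coa3, of complex IV assembly, stood at 44.7 CPM in heated and 85.4 CPM in 37 °C cells at 15 h (-0.93, -1.67 to -0.20). Coa3 already stood at 64.9 CPM in cells of the 45 °C arm and 103.5 CPM in those kept at 37 °C (-0.64, -1.69 to 0.24) before heating. Regulators of transcription of the chain were few in UMIs, and 5 of the 10 measured were at least 1.5-fold higher and 4 lower at 10 h, beside the same 21.9% and 19.2% of all genes. Yy1 stood at 158.4 CPM in heated and 63.5 CPM in 37 °C cells at 10 h (1.26, 0.44 to 2.35). Nrf1 stood at 50.01 CPM in heated and 11.5 CPM in 37 °C cells, from 2 UMIs at 37 °C (1.81, 0.19 to 5.20). That 37 °C value is the lowest of its unheated range (11.5 to 43.2 CPM).

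The tricarboxylic acid cycle feeds the chain with NADH and succinate. Its genes summed to 1993 CPM in heated and 2510.5 CPM in 37 °C cells at 10 h and 1903 CPM in heated and 2541 CPM in 37 °C cells at 15 h (-0.42, -0.53 to -0.30), both heated sums below the unheated range of 2293 to 2542 CPM. At 15 h 4 of the 15 measured were at least 1.5-fold lower and none higher, beside 12% and 12.3% of all genes. Suclg1, of succinate-CoA ligase, stood at 150.6 CPM in heated and 258 CPM in 37 °C cells at that time (-0.78, -1.18 to -0.38), but had differed as much before heating, with 182.1 CPM in cells of the 45 °C arm and 315 CPM in those kept at 37 °C (-0.80, -1.38 to -0.27). Glycolysis enzymes summed to 4300.0 CPM in heated and 5010.0 CPM in 37 °C cells at 15 h (-0.22, -0.30 to -0.14), where 4 of 13 were at least 1.5-fold lower, beside the same 12% of all genes. Before heating they had summed to 5818 CPM in cells of the 45 °C arm and 6574 CPM in those kept at 37 °C (-0.18, -0.27 to -0.08), a ratio close to that of 15 h. Tpi1, triose phosphate isomerase, stood at 187.9 CPM in heated and 331 CPM in 37 °C cells. Mitochondrial protein import stood at 3226 CPM in heated and 3428 CPM in 37 °C cells at 15 h (-0.09, -0.18 to 0.01).

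The mitochondrial ribosome makes the subunits encoded by mitochondrial DNA. Its 78 protein genes summed to 6365 CPM in heated and 7326 CPM in 37 °C cells at 5 h (-0.20, -0.27 to -0.13) and 6585 CPM in heated and 7612 CPM in 37 °C cells at 10 h (-0.21, -0.29 to -0.12). At least 1.5-fold lower were 19 of them at 5 h and 20 at 10 h, beside 30.5% and 19.2% of all genes. At 15 h the sums were 7073 CPM in heated and 7162 CPM in 37 °C cells (-0.02, -0.08 to 0.05), and 3 were lower, beside 12% of all genes. Mrpl18 stood at 133.1 CPM in heated and 340.5 CPM in 37 °C cells at 5 h. Cytosolic ribosomal protein genes had summed ratios of 0.24, 0.20 and -0.02 at the last 3 times, and 8 heat shock chaperones of 0.95, 0.79 and 0.47. At 15 h the interval of the respiratory chain sum (-0.27 to -0.20) and that of the mitochondrial ribosome did not overlap. Both intervals cover counting error alone, and the difference between the 2 lists was not tested.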

How the data were processed

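The deposited table holds the authors' estimated counts of UMIs per gene and cell, not scaled. The submitters' processing notes name STAR and mm10. Which program and annotation gave the counts, and whether strand was used, is not given in the sources used here. Values that are not whole make up 5.30% of those above 0 and hold 25.9% of UMIs. Sums over the cells of a group were rounded. No cell was left out, and no doublet caller was run because each sample was 1 picked cell. No 2 cells held identical values.

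CPM divides a sum by the group's total. The ratio's interval is an exact conditional binomial one (Clopper-Pearson) and that of a level an exact Poisson one. Only the ratio's interval was tested on simulated data, which were Poisson counts without spread between cells. A member was named if at least 1.5-fold apart, outside the unheated range and with an interval without 0 (up to 10 per direction). Also named were the 2 members with the most UMIs and those with extreme ratios at 5 h in each complex, paralogs, and some pathway genes on the first terms. Cox6a2 after heating, Ndufa7, Ndufb4, Ndufs7, Atp5a1 and other genes outside these terms were singled out after their values were seen. The members and lists were chosen with earlier results of these data known. UMIs were not divided by length, so levels of different genes are not ranked. Of the members, 26 overlap another gene of the table. Proteins and mitochondrially encoded genes were not analysed here, and some single genes are not reported here. The tools were Python 3.11.15, numpy 2.4.6, scipy 1.17.1 and pandas 2.3.3.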

Additional observations from a re-analysis of the deposited data

How the results depend on the processing

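The summed log2 ratio kept its direction at 15 h under every alternative run and was between -0.45 and -0.19. It was -0.19 without ribosomal and other noncoding RNA in the total (1 h: 0.064), -0.45 as a mean over single cells (10 h: -0.30), -0.40 from cells thinned to 5000 UMIs (5 h: 0.058, 10 h: -0.24) and -0.28 against the 45 °C arm before heating (5 h: -0.065). Size factors gave 0.18 at 1 h and 0.24 at 5 h, and all unheated cells -0.030 at 5 h. Leaving out 1 cell at a time gave -0.032 to 0.050 before heating, then -0.016 to 0.036 at 1 h, 0.043 to 0.16 at 5 h, -0.17 to -0.092 at 10 h and -0.28 to -0.21 at 15 h. The Cox6a2 ratio at 15 h reversed to -0.40 against all unheated cells. Of the values for the sums, 43 stayed within the 95% interval and 16 moved out of it, and of those for medians, counts and single members 229 stayed, 37 moved and 1 reversed. Medians and counts were judged by a fixed margin and not by an interval. Reversal was counted only for single members at least 1.5-fold apart. A change of sign in a sum, such as that at 5 h to -0.030, was therefore not counted as reversed. The cause of these moves was not tested. Leaving out cells over 50% Rn45s, size factors for single members, and the range count with at least 200 UMIs, under size factors or without 1 cell were chosen after seeing the data. No paired analysis was possible because each group is 1 sample and no test was made. Depth limits the 37 °C groups of 5 and 10 h, with 6 cells each.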
